A study of Mus musculus with 4 samples.

Results

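T cells read costimulatory and inhibitory cues through a set of surface molecules, of which 10 were chosen here by a list of names: Cd28, Icos, Ctla4, Pdcd1 and Btla of the CD28 family, the inhibitory receptors Lag3, Havcr2, Tigit and Cd160, and the surface ligand Cd200. All 10 were matched by Ensembl ID among 47729 gene rows, and all 10 passed the filter on low counts that left 13732 genes for testing. The libraries were made from C57BL/6 mouse CD4 T cells of the spleen, which had been activated and cultured as induced regulatory T (iTreg) cells with 100 U/mL IL-2, 5 ng/mL TGF-β, and blocking antibodies to IFN-γ and IL-4 at 5 µg/mL each. FeSO4 cells had 50 µM ferrous sulfate for 4 days and Mock cells had PBS for 4 days, with 2 libraries each. Per the study's methods, both groups were stimulated with anti-CD3 and anti-CD28, so the CD28 protein was engaged by antibody in Mock and FeSO4 cells alike, and the RNA was not from sorted Foxp3+ cells as far as the sources used here say.

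T cells need a signal from the antigen receptor and a second one from CD28, which binds CD80 and CD86 on other cells. ICOS is a relative of CD28 that appears after activation, binds ICOS ligand and maintains effector T and effector Treg cells. CTLA-4 competes with CD28 for the same ligands and is part of the suppressive equipment of Treg cells, while PD-1, BTLA, LAG-3, TIM-3 (Havcr2), TIGIT and CD160 dampen activation on engagement.

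Cd28, Ctla4 and Icos are neighbours on mouse chromosome 1, all on the plus strand. In NCBIM37 coordinates, given for orientation, Cd28 (ENSMUSG00000026012) lies at chr1:60773644-60830203, Ctla4 (ENSMUSG00000026011) at chr1:60943844-60972676 and Icos (ENSMUSG00000026009) at chr1:61034771-61057164. The gaps were 113.6 kb and 62.1 kb, and the exons of none of these genes overlapped those of another gene. Pdcd1 (chr1:95934884-95949130) lies farther along the same chromosome. Tigit (chr16:43648974-43664297), Btla (chr16:45224428-45253008) and Cd200 (chr16:45382248-45409166) are on chromosome 16, Lag3 (chr6:124854379-124861723) on 6, Havcr2 (chr11:46268437-46294757) on 11 and Cd160 (chr3:96602686-96633274) on 3. Cd160 shared 68 exon bases with Pdzk1 on the other strand.

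The coding sequences of the chromosome 1 neighbours are shown because they carry what the family shares and where its members part. The first set spans the loop that contacts the ligand, with its codons in capitals. Cd28 and Ctla4 both encode MYPPPY there, and both bind CD80 and CD86. Icos encodes FDPPPF and binds ICOS ligand. Each run is 30 bases of exon 2 from the GENCODE M1 transcripts of NCBIM37, at chr1:60820113-60820142 for Cd28, chr1:60969551-60969580 for Ctla4 and chr1:61050821-61050850 for Icos.
Cd28 loop: gagttcATGTACCCTCCGCCTTACctagac
Ctla4 loop: gaactcATGTACCCACCGCCATACtttgtg
Icos loop: tccattTTTGACCCACCTCCTTTTcaagaa

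The second set spans the tyrosine motif of the cytoplasmic tail that binds PI3-kinase, a tyrosine and a methionine with 2 residues between them, again with its codons in capitals. It reads YMNM at residues 189 to 192 of 218 in Cd28, YVKM at 201 to 204 of 223 in Ctla4 and YMFM at 181 to 184 of 200 in Icos. All 3 runs are in exon 4 of their transcripts, at chr1:60826528-60826557, chr1:60971481-60971510 and chr1:61052395-61052424.
Cd28 tail: caaagtgacTACATGAACATGactccccgg
Ctla4 tail: acaggggtcTATGTGAAAATGcccccaaca
Icos tail: aatagtgaaTACATGTTCATGgcggcagtc

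The counts assigned to genes summed to 35183187 to 40859178 in a library, and the biological coefficient of variation was 8.24%. The libraries held 84082 to 92776 counts of 5 CD4 T cell genes (Cd3d, Cd3e, Cd3g, Cd4 and Trac), and each of these 5 had a higher CPM in both FeSO4 libraries. Cd3g had 368.1 and 349.4 CPM in Mock against 505.2 and 512 in FeSO4 (log2 difference 0.5 ± 0.06, SE, adjusted p = 2.04e-05). Cd3d (0.38 ± 0.062, SE, adjusted p = 0.000425) and Trac (0.19 ± 0.062, SE, adjusted p = 0.0451) were also called higher, and Cd3e and Cd4 were not called (adjusted p = 0.159 and 0.132). The part of these T cell genes' rise in the members' values was not tested beyond ratios of counts. The libraries also held 63593 to 95326 counts of Foxp3 and Il2ra together. Of 4 NK cell markers, Ncr1, Klrb1c and Klra8 were at 0 in all 4 libraries, and Klre1 had 0 in Mock and 1 and 2 in FeSO4. Cd8a and Cd8b1 together had 378 to 398 counts in Mock and 341 to 408 in FeSO4. Of the B cell markers, Cd79a had 107 and 77 counts in Mock and 76 and 69 in FeSO4, while Ms4a1 and Pax5 had at most 1 count in any library. The red cell gene Hba-a1 was called higher, at 24.5 and 19.6 CPM in Mock against 37.5 and 32.5 in FeSO4 (0.66 ± 0.12, SE, adjusted p = 0.000731), and its part in the members' values was not tested. The 6 myeloid markers summed to 186 and 37 counts in Mock and 15 and 30 in FeSO4. Mock replicate 1 stood apart in Lyz2, with 164 counts against 0 to 8 in the other libraries. Csf1r (7 counts) and Cd14 (4 counts) were found in that library alone. Adgre1 went the other way, with 8 and 28 counts in Mock and 12 and 29 in FeSO4. Itgam and Flt3 had at most 2 counts in any library. Mock replicate 1 also stood apart in the plasma cell markers Igkc (156 counts against 3 to 8) and Jchain (62 counts against 0 to 2). Values without this library are given beside the members and partner genes that then lost their call.

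Of the 10 members, 4 were called higher with FeSO4 and 0 lower (adjusted p under 0.05 in edgeR's quasi-likelihood test, adjusted over all genes). Among all genes tested the shares were 10.9% higher and 9.17% lower. The members were chosen with earlier results of these data known, so comparisons of the list with all genes are a description only. Without the filter on low counts, 1 member was called higher, where 524 of 22164 genes were. Icos rose by the most certain margin, Btla and Lag3 rose as well, and Cd28 rose by a small step at the edge of the threshold. Ctla4, Pdcd1, Tigit, Havcr2, Cd160 and Cd200 were not called. At an unadjusted p under 0.05, 5 members were higher and 0 lower, beside 17.1% and 15.2% of all genes tested. Both FeSO4 libraries lay above both Mock libraries for 6 members and below them for 0, where 30.1% and 29.4% of all genes tested did so. The median log2 fold change was 0.35 over the 10 members and -0.00052 over all genes tested. The members' median was 0.205 when at least 10 counts were required in every library, which removed Tigit. These are whole-culture RNA levels, in which fewer cells that use a gene and less of its RNA per cell cannot be told apart.

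**Figure D1:**
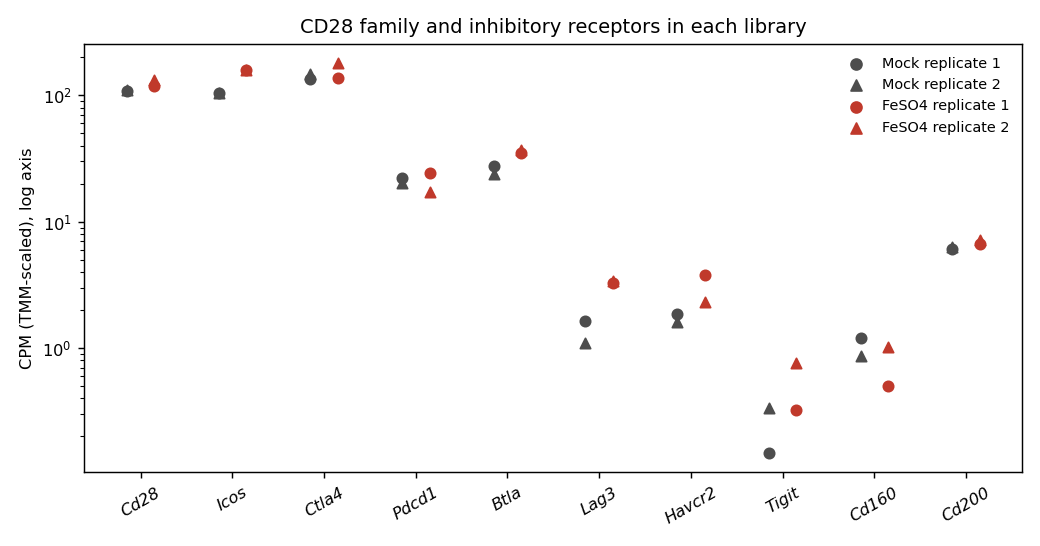
CPM (counts in every 1000000, TMM-scaled) of the 10 members on a log axis, with 1 point per library, grey for Mock and red for FeSO4, circles for replicate 1 and triangles for replicate 2. Cd28, Icos and Ctla4 sit at 103.9 to 179.1 CPM in every library, and Lag3, Havcr2, Tigit and Cd160 below 4 CPM.

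Icos, the inducible costimulator, had 4216 and 4367 counts in Mock and 5475 and 5843 in FeSO4. In CPM, the counts in every 1000000 of the TMM-scaled library size, this was 103.9 and 104.4 in Mock and 159.8 and 157.9 in FeSO4. The libraries of each group nearly coincided and the groups were far apart. Icos was 1.53-fold higher in FeSO4, with a log2 fold change of 0.61 ± 0.066 (SE, 95% interval 0.47 to 0.75, adjusted p = 7.21e-06). The rise was called under all 13 alternative settings, with log2 fold changes of 0.54 to 0.62.

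Cd28, the receptor that the culture antibody engages, had 107.8 and 110.5 CPM in Mock against 119.5 and 132.9 in FeSO4. All of the FeSO4 values were above the Mock values, but FeSO4 replicate 1 exceeded Mock replicate 2 by little. The log2 fold change was 0.21 ± 0.072 (SE, 95% interval 0.059 to 0.36, adjusted p = 0.0475). Of 13 alternatives, 3 kept the call and 10 lost it, with adjusted p-values from 0.017 to 0.396, and its log2 fold change was 0.13 without FeSO4 replicate 2. Adjusted p-values without Mock replicate 1 and without Mock replicate 2 were 0.141 and 0.0757.

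Ctla4, which encodes the competitor of CD28, had 135.5 and 147.1 CPM in Mock against 138.3 and 179.1 in FeSO4. FeSO4 replicate 1 lay between the Mock libraries, so the groups overlapped. No difference passed the test (log2 fold change 0.17 ± 0.093, SE, 95% interval -0.027 to 0.36, adjusted p = 0.226). The value rested on FeSO4 replicate 2: it was -0.028 without that library and 0.35 without FeSO4 replicate 1, where it was called (adjusted p = 0.00818). Foxp3, the lineage factor of Treg cells and a regulator of Ctla4, was lower in the same libraries, at 586.6 and 693.4 CPM in Mock against 375.6 and 471.6 CPM in FeSO4 (log2 fold change -0.59 ± 0.091, SE, adjusted p = 0.000223, or 0.067 without the filter). Ctla4 counts per Foxp3 count went from 0.231 and 0.212 in Mock to 0.368 and 0.38 in FeSO4.

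Ratios of counts within a library do not depend on how libraries are scaled. Icos counts per Cd28 count were 0.964 and 0.945 in Mock and 1.34 and 1.19 in FeSO4, and Icos counts per Ctla4 count were 0.767 and 0.71 in Mock and 1.16 and 0.881 in FeSO4. Both ratios were higher in both FeSO4 libraries, so within the gene cluster on chromosome 1 Icos gained on its neighbours. Ctla4 counts per Cd28 count overlapped between the groups, at 1.26 and 1.33 in Mock and 1.16 and 1.35 in FeSO4. Relative to the 5 CD4 T cell genes, the picture depended on the gene chosen. Icos counts per count of each of the 5 were higher in both FeSO4 libraries, for example per Cd3e count (0.335 and 0.344 in Mock, 0.492 and 0.456 in FeSO4) and by least per Cd3g count (0.282 and 0.299 in Mock, 0.316 and 0.308 in FeSO4). Cd28 counts were higher per Cd3e count (0.347 and 0.364 in Mock, 0.368 and 0.384 in FeSO4), overlapped per Cd4 and per Trac count, and were lower per Cd3d count and per Cd3g count (0.293 and 0.316 in Mock, 0.237 and 0.26 in FeSO4). Lag3 was higher per count of each of the 5 genes. Btla was higher per Cd3e, Cd4 and Trac count and overlapped per Cd3d and Cd3g count. No test was run on these ratios, and they are given as a description.

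**Figure D2:**
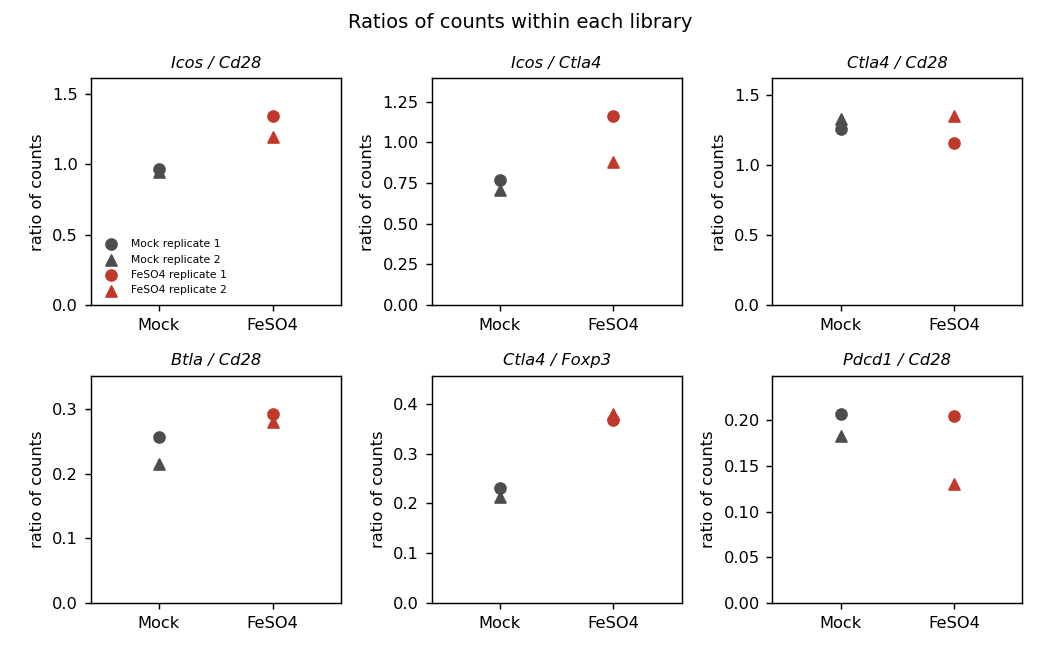
Ratio of the counts of a pair of genes within each library, from 0 on each axis, grey for Mock and red for FeSO4, circles for replicate 1 and triangles for replicate 2. Icos per Cd28, Icos per Ctla4, Btla per Cd28 and Ctla4 per Foxp3 are above both Mock libraries in each FeSO4 library, and Ctla4 per Cd28 and Pdcd1 per Cd28 overlap.

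Pdcd1, which encodes PD-1, had 22.35 and 20.25 CPM in Mock against 24.46 and 17.24 in FeSO4. The FeSO4 libraries lay on either side of the Mock libraries. The log2 fold change was -0.036 ± 0.14 (SE, 95% interval -0.33 to 0.26, adjusted p = 0.894). Leaving out single libraries moved it from -0.3 to 0.2.

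Btla, an inhibitory member that binds HVEM (Tnfrsf14), had 27.83 and 23.87 CPM in Mock against 35 and 37.2 in FeSO4. The groups did not overlap. Btla was 1.4-fold higher in FeSO4 (log2 fold change 0.48 ± 0.1, SE, 95% interval 0.27 to 0.7, adjusted p = 0.00306). The call held under 12 of 13 alternatives and was lost without the filter on low counts, with an adjusted p of 0.0578. B cells also use Btla. Their marker Cd79a had 107 and 77 counts in Mock and 76 and 69 in FeSO4, and Ms4a1 and Pax5 had at most 1 count in any library. The part of B cells in the Btla values was not tested.

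Lag3, which encodes a CD4-related receptor for MHC class II, had 66 and 46 counts in Mock and 112 and 126 in FeSO4, which is 1.627 and 1.1 CPM against 3.269 and 3.404 CPM. Its level was low, but every FeSO4 value was above every Mock value. With all libraries kept, Lag3 had the largest log2 fold change of the 10 members, 1.29 ± 0.31 (SE, 95% interval 0.64 to 1.95, adjusted p = 0.00738), or 2.45-fold. The call was lost without the filter (adjusted p = 0.0592) and without Mock replicate 2 (log2 fold change 1.04, adjusted p = 0.0747), and held under the other 11 alternatives.

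Havcr2, which encodes TIM-3, had 76 and 67 counts in Mock and 129 and 85 in FeSO4, or 1.873 and 1.602 CPM against 3.765 and 2.296 CPM. FeSO4 replicate 1 was the high library, and the groups did not overlap. The log2 fold change of 0.79 ± 0.32 (SE, 95% interval 0.11 to 1.47) had an unadjusted p of 0.0252 in edgeR but an adjusted p of 0.0971. It was 1.12 without FeSO4 replicate 2, where it was called (adjusted p = 0.0404), and 0.41 without FeSO4 replicate 1.

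Tigit and Cd160 had the lowest counts of the 10 members. Tigit, a receptor for CD155 (Pvr), had 6 and 14 counts in Mock and 11 and 28 in FeSO4. In both groups replicate 2 had the larger count, and the groups overlapped (log2 fold change 1.16 ± 0.69, SE, 95% interval -0.29 to 2.61, adjusted p = 0.259). With 1 library left out, that of Tigit ranged from 0.4 to 1.87, above that of Lag3 without Mock replicate 2 or FeSO4 replicate 1. Cd160, which shares the ligand HVEM with Btla, had 49 and 36 counts in Mock and 17 and 38 in FeSO4. Only FeSO4 replicate 1 was low, and the log2 fold change of -0.42 ± 0.47 (SE, 95% interval -1.42 to 0.58, adjusted p = 0.588) was -0.0031 without that library. For Cd160 it was -1.05 without FeSO4 replicate 2. Both intervals span 0 and are wide, and 3 counts were worth 0.0717 to 0.0876 CPM in these libraries.

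Cd200, the ligand of an inhibitory receptor and no receptor itself, had 6.137 and 6.289 CPM in Mock against 6.626 and 7.186 in FeSO4. The FeSO4 values were higher but by little. The log2 fold change was 0.15 ± 0.18 (SE, 95% interval -0.23 to 0.54, adjusted p = 0.607).

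**Figure D3:**
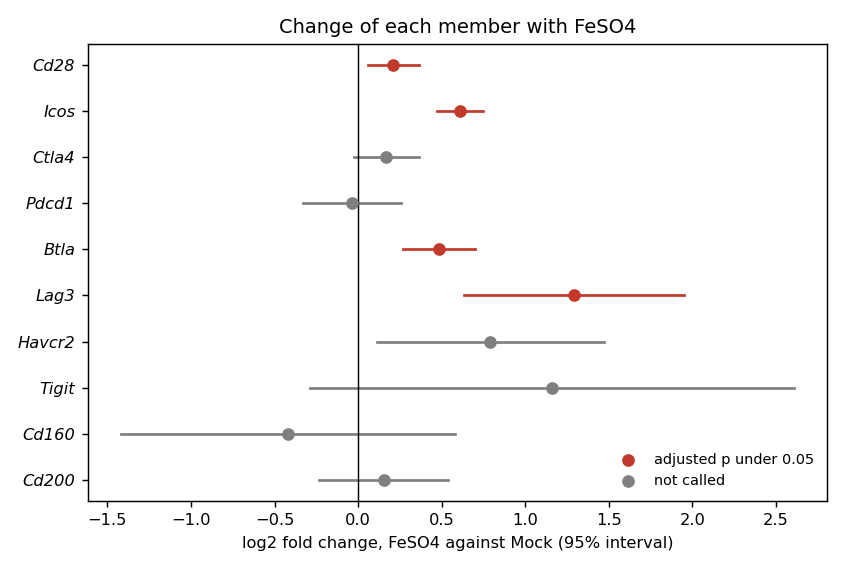
Log2 fold change of each member, FeSO4 against Mock, from edgeR with 95% intervals, red where the adjusted p was under 0.05 and grey where it was not. The interval of Icos (0.47 to 0.75) is narrow and clear of 0, that of Lag3 (0.64 to 1.95) is clear of 0 but wide, and those of Ctla4, Pdcd1, Tigit, Cd160 and Cd200 span 0.

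The study's own threshold for these libraries asked for a change of 0.5 or more on the log2 scale in either direction and a p below 0.05 without adjustment. With edgeR's p-values, 3 members were higher by it, Icos, Lag3 and Havcr2, and 0 were lower, where 4.67% of all genes tested were higher and 5.73% were lower. Btla and Cd28 were left out by their size. With 1 library left out, sizes crossed 0.5 both ways. Havcr2 was at 0.41 without FeSO4 replicate 1, and Btla was at 0.59 without Mock replicate 1. At a minimum log2 fold change of 1, Lag3 was the 1 member remaining. Of all genes tested, 4.07% had a larger absolute change than Lag3, and the share passing that minimum is not given here.

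Compared per kilobase of exon (CPM divided by the length of all annotated exons), the mean levels spanned a wide range. In Mock, Ctla4 stood first at 60.6, followed by Icos at 30.4, Cd28 at 17.8, Pdcd1 at 11.1 and Btla at 7.93 CPM per kb, and the libraries of neighbours in this order did not overlap. Cd200 was at 1.87 CPM per kb, and Lag3 (0.521 to 0.771 over the Mock libraries) and Havcr2 (0.589 to 0.688) could not be ordered. Cd160 (0.326 to 0.457) and Tigit (0.154 to 0.348) came last in Mock, and their libraries overlapped. In FeSO4 the first 3 kept their order, with Ctla4 at 68.1, Icos at 46.3 and Cd28 at 20.6 CPM per kb, while Btla (10.7 to 11.4) now lay within the spread of Pdcd1 (8.94 to 12.7). Lag3, Havcr2, Tigit and Cd160 were below every library of Btla in both groups.

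The genes of their binding partners did not move as 1 block. T cells carry some of these ligands themselves, and 13 of 14 listed ones were tested. Cd86, a ligand of CD28 and CTLA-4, was at 26.1 and 25.6 CPM in Mock against 37.6 and 39.8 in FeSO4, a log2 difference of 0.58 ± 0.093 (SE, adjusted p = 0.000352) in groups that did not overlap. The second ligand of that pair, Cd80, was not called (0.2 ± 0.15, SE, adjusted p = 0.381). Icosl, the ligand of ICOS, had 24.9 and 24 CPM in Mock against 17.7 and 21.8 in FeSO4. Its log2 fold change of -0.3 ± 0.12 (SE, adjusted p = 0.0792) did not pass.

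The PD-1 ligands Cd274 (log2 value 0.29 ± 0.12, SE, adjusted p = 0.0924) and Pdcd1lg2 (0.34 ± 0.15, SE, adjusted p = 0.132) were not called. Nor was Tnfrsf14, the partner of Btla and Cd160 (-0.27 ± 0.13, SE, adjusted p = 0.17), or Pvr, the partner of Tigit (0.22 ± 0.1, SE, adjusted p = 0.14). Cd200r1, the inhibitory receptor for Cd200, was lower at 22.5 and 21 CPM in Mock against 18.4 and 15.6 in FeSO4, a log2 difference of -0.35 ± 0.12 (SE, adjusted p = 0.0464). That call was lost with DESeq2 (-0.36, adjusted p = 0.0735) and without the filter (-0.35, adjusted p = 0.158). The log2 difference was -0.31 without Mock replicate 1, -0.4 without Mock replicate 2 and -0.23 without FeSO4 replicate 2, where the call was lost too. It was -0.47 without FeSO4 replicate 1.

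Ceacam1, a reported partner of TIM-3, had 458 and 101 counts in Mock and 28 and 73 in FeSO4, and its fall (log2 fold change -2.26 ± 0.57, SE, adjusted p = 0.0104) rested on Mock replicate 1. Without that library, which also held the Lyz2 and Igkc counts, it was -0.78 with an adjusted p of 0.254, and the call was also lost with DESeq2, with limma-voom and without the filter (adjusted p from 0.0692 to 0.236). The part of other cells in it was not tested. Lgals9, Lgals3, Nectin2 and Nectin3 were not called, and Fgl1 had 0 counts in all libraries. In all, 1 of 13 partner genes tested was higher and 2 were lower at an adjusted p under 0.05, where 10.9% and 9.17% of all genes tested were. The number of lower partner genes was 0 with DESeq2 and without the filter, and 1 with limma-voom. It was 4 with library size only and with the replicate block. Among 13732 genes, 1098 were lower with DESeq2, 1193 with limma-voom, 1810 with library size only and 1580 with the block. Without the filter, 304 of 22164 genes were lower. The number of higher partner genes was 1 under each alternative that kept all libraries, where 524 to 1847 of all genes were higher. Leaving out single libraries moved both numbers in some settings.

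**Figure D4:**
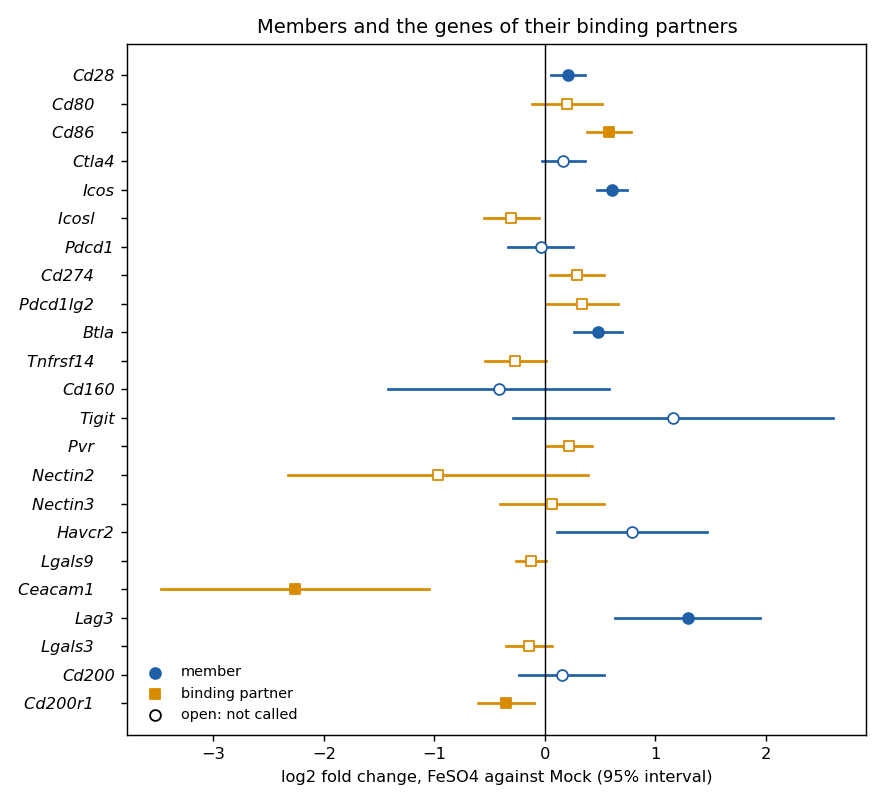
Log2 fold change, FeSO4 against Mock, with 95% intervals for the members (blue circles) and for the genes of their binding partners (orange squares, indented below a member), filled where the adjusted p was under 0.05. Cd86 at 0.58 lies close to Icos at 0.61, Icosl is below 0, and the wide interval of Ceacam1 rests on 1 Mock library.

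Of 10 related receptors, 8 were tested, 1 was higher and 1 was lower, near the 10.9% and 9.17% of all genes tested. Cd5, a damper of T cell receptor signals, rose from 336.9 and 305.8 CPM to 373.9 and 370.9 CPM (log2 fold change 0.21 ± 0.064, SE, adjusted p = 0.0267), and the call was lost when any of Mock replicate 2, FeSO4 replicate 1 and FeSO4 replicate 2 was left out, with library size only and without the filter (adjusted p from 0.0802 to 0.162). Cd244a had 50 and 49 counts in Mock and 8 and 12 in FeSO4, a log2 difference of -2.09 ± 0.54 (SE, adjusted p = 0.0114), which did not pass without FeSO4 replicate 1, without FeSO4 replicate 2 or without the filter (adjusted p from 0.0667 to 0.133). Cd226 and Cd96, which compete with or complement TIGIT at the same ligands, were not called (log2 values of -0.24 ± 0.14 and -0.093 ± 0.064, SE, with adjusted p = 0.247 and 0.341). Vsir, Lair1, Cd6 and Cd101 were not called either. Klrg1 had 0 counts, and Pvrig was not matched to an ID.

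Among 21 genes that carry the signals of these receptors or move them to the surface, 1 was higher and 3 were lower, against 10.9% and 9.17% of all genes tested. Ptpn6, which encodes the phosphatase SHP-1 used by inhibitory receptors, was higher (464.9 and 436.8 CPM in Mock against 562.3 and 532.4 in FeSO4, log2 fold change 0.28 ± 0.062, SE, adjusted p = 0.00416). Prkcq, which encodes the kinase PKC-θ downstream of CD28, was lower (-0.29 ± 0.062, SE, adjusted p = 0.00314), as were Grap2, which encodes the adaptor GADS that binds the CD28 tail (-0.33 ± 0.067, SE, adjusted p = 0.00246), and Bag6, which encodes a TIM-3 binding protein (-0.23 ± 0.063, SE, adjusted p = 0.0176). The Bag6 call was lost without FeSO4 replicate 2 (-0.16, adjusted p = 0.224) and without the filter (adjusted p = 0.0961), where Grap2 lost its call too (adjusted p = 0.0662). Ptpn11, which encodes SHP-2, was not called (-0.16 ± 0.066, SE, adjusted p = 0.104). Rc3h1, which encodes Roquin-1, a repressor of Icos mRNA, was at 48.3 and 56.5 CPM in Mock against 42.1 and 45 in FeSO4, just short of the threshold (-0.27 ± 0.092, SE, adjusted p = 0.0503). Its relative Rc3h2 was not called (0.047 ± 0.098, SE, adjusted p = 0.79). The number of lower genes in this list was 1 without the filter and 6 with the replicate block. It was 6 with upper-quartile scaling and 9 when only library size was used, and it also moved without Mock replicate 1. Among all genes, 304 of 22164 were lower without the filter. Of 13732, 1580 were lower with the block, 1390 with upper-quartile scaling and 1810 with library size only. With the block, 2 genes of this list were higher, where 1847 of all genes were, against 1491 in the main fit.

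Of 14 transcription factors that are known to act on one or more members, 13 were tested, 6 were higher and 2 were lower, beside shares of 10.9% and 9.17% over all genes tested. This list was chosen with earlier results of these data known. Irf4 and Batf, partners that bind many genes of activated T cells, had log2 fold changes of 0.57 ± 0.069 and 0.71 ± 0.093 (SE, with adjusted p = 2.31e-05 and 4.97e-05). Nr4a1, an early target of the antigen receptor, rose by 0.81 ± 0.1 (SE, adjusted p = 2.73e-05) and Maf by 0.51 ± 0.072 (SE, adjusted p = 0.000112). Prdm1, which encodes Blimp-1, went from 28 and 43 counts to 92 and 150 (1.97 ± 0.36, SE, adjusted p = 0.00112), and Tbx21, which encodes T-bet, from 60 and 55 to 191 and 153 (1.79 ± 0.29, SE, adjusted p = 0.000412). Foxp3 was lower, as was Nfatc1 (-0.22 ± 0.069, SE, adjusted p = 0.0325). The Nfatc1 call was lost without the filter and without Mock replicate 2, FeSO4 replicate 1 or FeSO4 replicate 2 (adjusted p from 0.0977 to 0.235). Tox and Nr4a3 were not called, at 0.043 ± 0.089 and 0.036 ± 0.12 (SE, adjusted p = 0.784 and 0.87), Nr4a2, Eomes and Bcl6 were not called, and Tox2, with 4 to 13 counts, did not pass the filter.

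**Figure D5:**
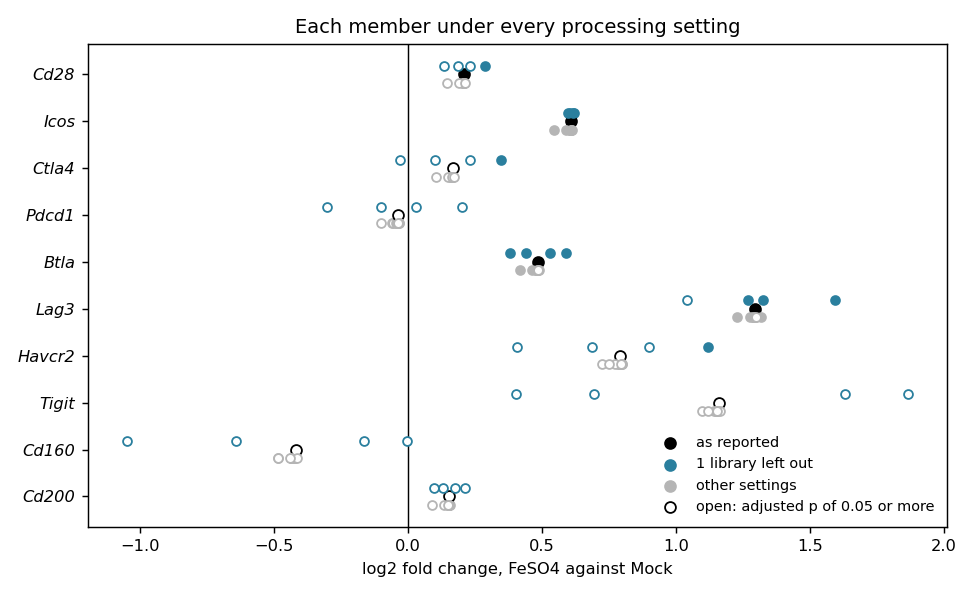
Log2 fold change of each member, FeSO4 against Mock, as reported (black), with 1 library left out (blue) and under the other settings (grey), filled where the adjusted p was under 0.05. Icos is filled in every setting at 0.54 to 0.62, Cd28 is mostly open, and leaving out 1 library turns the direction of Ctla4 and Pdcd1 in some settings and spreads the values of Tigit and Cd160 by more than 1.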

How the data were processed

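RNA of 2 Mock and 2 FeSO4 iTreg libraries was compared, with groups taken from the sample titles. The authors deposited 1 table of unnormalized counts, with a row for each Ensembl gene. The submitters' processing notes name Trim Galore 0.6.7, STAR 2.7.9a, featureCounts and build mm10, whereas the study's methods name STAR, build mm9 and DESeq; the 5 closing rows of the table carry the names that htseq-count gives. Strand setting and annotation are not given in the sources used here. Those 5 rows, 15.9 to 17.3% of a library, were left out. Multiply aligned reads, which form 1 of those 5 rows, entered no gene row. Symbols were matched by Ensembl ID (32799 of 47729 IDs had one, and 94 of 97 listed names were matched), with RefSeq synonyms (GRCm38.p6) as a bridge. Positions, exon lengths and sequences came from GENCODE M1 (NCBIM37), so lengths may differ from those of the annotation used for counting.

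Counts were analysed in R 4.3.3 with edgeR 4.0.16: filterByExpr, TMM, and the quasi-likelihood F test with the bias-adjusted dispersion, with Benjamini-Hochberg adjustment over 13732 genes. The SE is the log2 fold change divided by the square root of F, and intervals are 95% on the fit's degrees of freedom. Error of a count covers counting only, as no molecular identifiers are named. Neither pair of replicates agreed within sampling noise (chi-square per degree of freedom 12.1 for Mock and 9.57 for FeSO4). The methods speak of pairs from independent experiments, but no source ties the replicate numbers to them. Alternatives were DESeq2 1.42.0, limma-voom (limma 3.58.1), other scalings and filters, the replicate block, each library left out and edgeR's legacy dispersion, which was added after seeing the data. The fit was tested on a single simulated draw with known changes, in which far fewer genes changed than were called in the data. Calls of changed genes had the right direction there. Unchanged genes formed a larger share of the calls than the adjusted threshold of 0.05 allows for. The draw does not give the share of false calls in these libraries. The members, the 4 lists of related genes and the markers were chosen with earlier results of these data known. All members were named, with the genes of each list that were called or had the 5 smallest p-values; others are named as not called or not tested. The ratios of counts were chosen after the design was fixed. Of the B cell markers, 1 is not reported here.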

Additional observations from a re-analysis of the deposited data

How the results depend on the processing

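Of the 4 members called higher, Icos was called under all 13 alternatives. Cd28 lost the call in 7 settings that kept all libraries, where its log2 fold change was 0.2058 (DESeq2), 0.209 (limma-voom), 0.206 (DESeq2 size factors in edgeR), 0.1916 (upper quartile), 0.1456 (library size only), 0.2136 (no filter) and 0.2101 (legacy dispersion), and it ranged from 0.1344 to 0.2887 with 1 library left out. Without the filter, Btla (0.4869) and Lag3 (1.297) also lost the call, with more genes tested, and 1 member was called in place of 4. Over all genes, 524 of 22164 were then called higher, against 1491 of 13732 in the main fit. With 1 library left out, 2 to 5 members were called higher and 0 lower, 2 of them without Mock replicate 2; Lag3 ranged from 1.04 to 1.592, Ctla4 from -0.02784 to 0.3459 and Havcr2 from 0.4073 to 1.119. Each fit with 1 library left out had 1 library in a group, so its number of called members is a description only. It cannot be compared with the all-gene numbers of the main fit. The causes were not tested. The members' median was 0.205 with at least 10 counts required in every library, which removed Tigit. Lag3 was the 1 member with both an unadjusted p under 0.05 and a log2 fold change of at least 1. Tigit, at 1.162, had an unadjusted p of 0.109 in edgeR's test. Of all genes tested, 4.07% had a larger absolute change than Lag3, at any p and in either direction. With the replicate block, 4 members were called and their median was 0.3471; over all genes 1847 were higher and 1580 lower, against 1491 and 1259 without it, and deviations of same-numbered libraries correlated by 0.0293 across genes, so the numbers are not known to pair the samples. Of the scalings, library size only shifted the all-gene median the most, to -0.0655. Tigit and Cd160 had the lowest counts, and with 1 library left out Cd160 ranged from -1.048 to -0.003068 and Tigit from 0.4022 to 1.867.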
